A study of Homo sapiens with 2 samples.

Results

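Eosinophil granule cells were 103 of 7550 kept cells (1.36%, exact Clopper-Pearson 95% interval 1.11 to 1.65%) in a culture of blood cells made from the human induced pluripotent stem cell line iPS11. They were selected on their own counts: a kept cell belonged to the group if it held at least 10 unique molecular identifiers (UMIs, each standing for 1 captured transcript) of *EPX* and at least 10 of *PRG2*. High *EPX* and *PRG2* is therefore what chose these cells and not a finding, and every value below describes cells of 1 library. A cell was kept if it was called for a single hashtag and did not exceed 36000 gene UMIs, 6000 genes or a mitochondrial share of 18%.

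CD34+ cells from aggregates were cultured for 5 days through the endothelial-to-hematopoietic transition (EHT), the step in which hemogenic endothelium gives rise to blood, in a medium that held IL-3, SCF, IL-6, IL-11 and FLT3L among its factors. The wells were uncoated or were coated with VCAM1, with DLL4 or with both, and nonadherent cells of 3 wells were combined for each of the 4 coatings. Each coating received its own hashtag antibody (0252, 0253, 0254 or 0255) before all cells were mixed for droplet-based single-cell RNA sequencing. The sources used here do not pair hashtags with coatings, so values are given by hashtag number, without naming a coating.

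The design has 1 library, 1 cell line and no replicate of any coating, so no p-value was computed between cells or hashtags, and intervals cover counting error only. The 103 cells were compared with 833 azurophil granule cells, which held at least 20 UMIs of *ELANE*, *PRTN3* and *AZU1* together, and with the 6614 other kept cells. A further comparison used 115 of those other cells with at least 10 UMIs of *CPA3*, *HDC* and *MS4A2* together, called HDC/CPA3 cells here. Median depth was 20668 UMIs per cell in the eosinophil granule cells (range 5873 to 35321), 18026 in the azurophil granule cells, 18296 in the other cells and 22664 in the HDC/CPA3 cells. The median mitochondrial share was 12.1%, 10.9%, 13.4% and 13.5%, respectively.

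Eosinophils are granulocytes that arise from myeloid progenitors under the cytokines IL-5, IL-3 and GM-CSF, whose receptors share the beta chain encoded by *CSF2RB*. Their large specific granules hold a crystalline core of major basic protein (*PRG2*) surrounded by eosinophil peroxidase (*EPX*) and the ribonucleases encoded by *RNASE2* and *RNASE3*, and these proteins are made early, at the promyelocyte stage. GATA1 together with C/EBP factors and PU.1 is known to specify the lineage, whereas neutrophil promyelocytes fill azurophil granules with myeloperoxidase and serine proteases.

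A UMI of *EPX* was seen in 17.6% of all kept cells and a UMI of *PRG2* in 10.2%, but only 402 cells had both (the plot of *EPX* against *PRG2*). The 103 cells held 57.3% of all *EPX* UMIs and 51.8% of all *PRG2* UMIs of the kept cells. *EPX* ranged from 10 to 249 UMIs per cell with a median of 49, and *PRG2* from 10 to 44 with a median of 16. In 96 of the 103 cells *PRG2* was the lower count, so *PRG2* set most of the boundary. The 31 cells just inside it, whose lower count was 10 to 12, had medians of 39 *EPX* and 37 *CLC* UMIs, and the 42 cells just outside, with a lower count of 7 to 9, had medians of 22 and 48. The limit thus cut through a continuous range of counts. Another 93 kept cells had at least 10 UMIs of *EPX* with under 10 of *PRG2*, and 14 had the reverse.

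**Figure D1:**
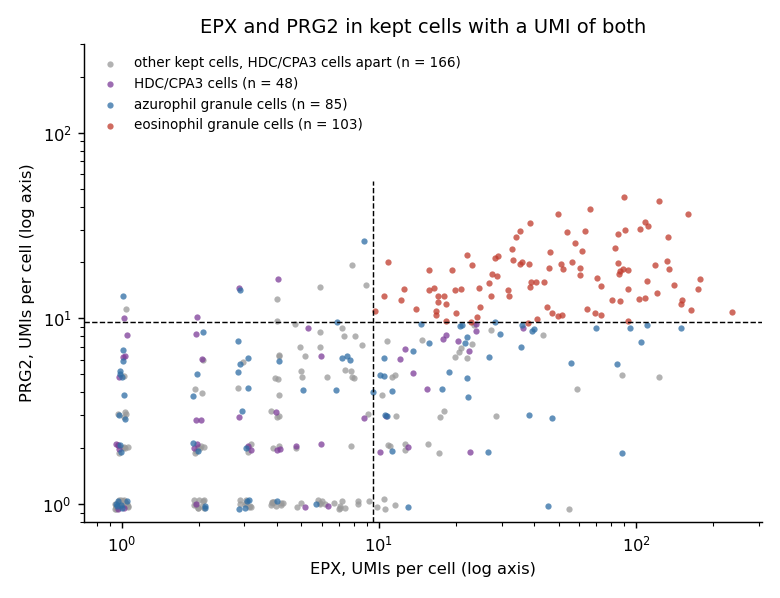
UMIs of *EPX* (x axis, log) and *PRG2* (y axis, log) in the 402 kept cells with at least 1 UMI of both, each point a cell moved by a small random factor so that equal counts do not overlap, with dashed lines just under the limit of 10 UMIs. The 103 eosinophil granule cells fill the upper right, and cells with fewer UMIs reach up to the lines without a gap.

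*EPX* was close to 0 in cells of another lineage, in which a UMI can come from RNA that was free in the droplet. In 645 kept cells with at least 10 UMIs of the macrophage genes *C1QA*, *C1QB* and *C1QC*, which should lack *EPX*, 7.29% had a UMI of *EPX* and no cell had more than 2. With each cell thinned to 5000 UMIs this share was 2.34% (642 cells, 3 shallower cells left out), against 100.0% in the eosinophil granule cells, where the rule fixes it. Median depth was 13496 UMIs in the C1Q cells. Not every granule gene was near 0 in them: 67.0% had a UMI of *RNASE2*.

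Of the granule protein genes not used in the selection, *PRG3* and *CLC* were high in the same cells. *PRG3*, which encodes a homolog of major basic protein, had 2806 UMIs per 1000000 (CPM, exact Poisson 95% interval 2737 to 2877) against 87.4 in the azurophil granule cells and 17.5 in the other cells. It was present in 102 of the 103 cells, with a median of 36 UMIs and a highest count of 253. *CLC*, the Charcot-Leyden crystal protein galectin-10, had 5717 CPM (5618 to 5818) against 88.2 and 64.5. *CLC* was missing from more cells than *PRG3*: 23 cells had none, the median was 81 UMIs and the highest count was 723. For comparison, the genes used in the selection had 2921 CPM (*EPX*) and 847 CPM (*PRG2*), against 110 and 38.5 in the azurophil granule cells.

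By hashtag, *PRG3* was 2039 CPM in 46 cells of hashtag 0252, 3162 in 43 cells of 0253, 4592 in 12 cells of 0254 and 3124 in 2 cells of 0255. *CLC* was 3760, 6757, 7406 and 18521 CPM in the same order. Both genes were lowest in hashtag 0252, where *CLC* ranged from 0 to 535 UMIs per cell, against 0 to 723 in 0253, so the cells of these hashtags overlapped widely. Every one of these values was above that of the azurophil granule cells of the same hashtag, which lay between 53.3 and 145 CPM for *PRG3* and between 12.8 and 165 CPM for *CLC*.

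The 2 ribonuclease genes behaved otherwise. *RNASE2*, the eosinophil-derived neurotoxin, had 415 CPM in the eosinophil granule cells (389 to 443), 486 in the azurophil granule cells (475 to 497), 58.1 in the other cells and 16.5 in the HDC/CPA3 cells. In the C1Q cells it had 204 CPM. *RNASE3*, the eosinophil cationic protein, had 26.0 CPM (19.7 to 33.6), below the 68.3 CPM of the azurophil granule cells, and 74 of the 103 cells had none. *RNASE2* was thus no higher than in the azurophil granule cells and *RNASE3* was lower, with a log2 ratio of -1.24 (of CPM + 5, as for all log2 ratios here) that came to -0.94 with a pseudocount of 20 CPM, to -0.93 when the cells were chosen by 500 CPM of *EPX* and of *PRG2* in place of 10 UMIs, and to -0.32 at a mitochondrial limit of 10%. These genes are paralogs, and whether the authors' counting lost or split reads that fit both was not tested, so the level of each is uncertain.

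**Figure D2:**
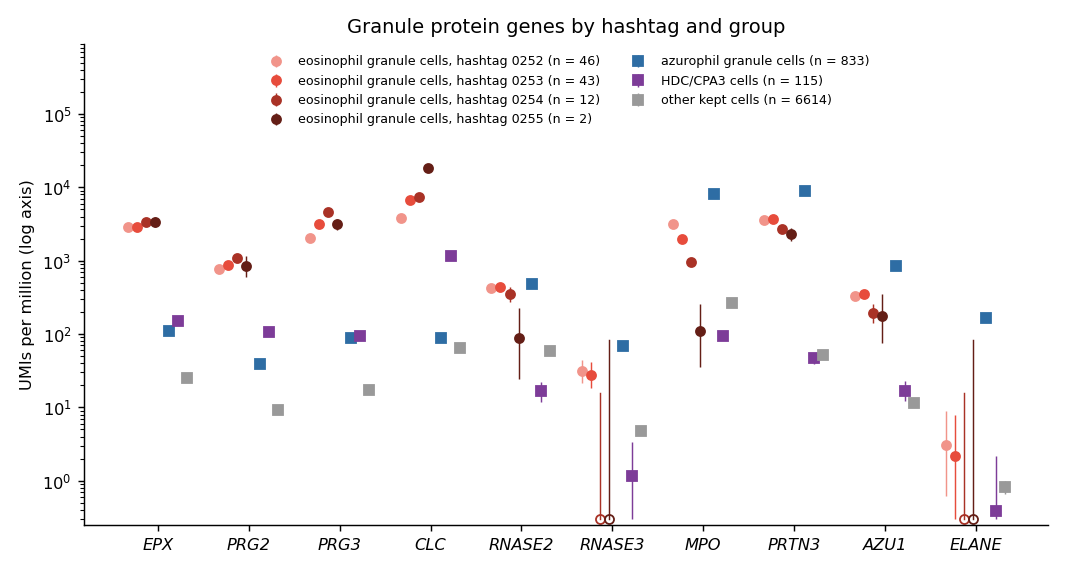
CPM (y axis, log) of 10 granule protein genes in the eosinophil granule cells of each hashtag (circles) and in the azurophil granule, HDC/CPA3 and other cells (squares), with exact Poisson 95% intervals; open circles on the lower edge are groups with no UMI, and intervals are cut at that edge. *EPX*, *PRG2*, *PRG3* and *CLC* stand above the other groups in every hashtag, *RNASE2* in hashtags 0252 to 0254 lies close to its azurophil level of 486, and *ELANE* is at or near 0.

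The genes lie in 4 places of the hg19 build that the counts use. *EPX* is at chr17:56270087-56282535 on the forward strand, 64680 bases before *MPO*, its neutrophil counterpart. *PRG3* (chr11:57144242-57148623) and *PRG2* (chr11:57154253-57158123) are neighbors on the reverse strand, 5629 bases apart. *RNASE3* (chr14:21359544-21360507) and *RNASE2* (chr14:21423646-21424595) lie on the forward strand of chromosome 14, and *CLC* is at chr19:40221895-40228669 on the reverse strand. *PRG2* overlaps a longer annotated transcript on the same strand, RP11-872D17.8, which had no UMI in the eosinophil granule cells; reads that fit both are not counted for either gene, so the *PRG2* level may be underestimated.

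Promoter sequences of the granule genes were taken from RefSeq (build GRCh38.p14) for 4 of the 6 genes, *PRG3*, *CLC*, *RNASE2* and *RNASE3*, and those of *EPX* and *PRG2* were not used here. The 250 bases before the start site are shown for 3 of them because these genes were high together (*PRG3*, *CLC*) or were shared with the azurophil granule cells (*RNASE2*). Capitals mark matches, on either strand, to AGATAA (the core bound by GATA factors), TTNNGNAA (C/EBP) and GAGGAA (PU.1), which do not overlap each other here.
PRG3, chr11:57381151-57381400, reverse strand: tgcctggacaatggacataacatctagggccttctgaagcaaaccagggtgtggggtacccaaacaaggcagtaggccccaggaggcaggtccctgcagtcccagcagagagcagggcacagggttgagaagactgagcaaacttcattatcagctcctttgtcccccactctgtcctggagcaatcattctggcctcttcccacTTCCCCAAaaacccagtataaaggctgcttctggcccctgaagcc
CLC, chr19:39738030-39738279, reverse strand: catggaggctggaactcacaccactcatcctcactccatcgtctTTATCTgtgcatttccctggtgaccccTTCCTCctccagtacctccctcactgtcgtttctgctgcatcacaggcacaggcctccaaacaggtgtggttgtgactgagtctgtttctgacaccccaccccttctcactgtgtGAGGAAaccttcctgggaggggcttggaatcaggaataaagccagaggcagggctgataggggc
RNASE2, chr14:20955237-20955486, forward strand: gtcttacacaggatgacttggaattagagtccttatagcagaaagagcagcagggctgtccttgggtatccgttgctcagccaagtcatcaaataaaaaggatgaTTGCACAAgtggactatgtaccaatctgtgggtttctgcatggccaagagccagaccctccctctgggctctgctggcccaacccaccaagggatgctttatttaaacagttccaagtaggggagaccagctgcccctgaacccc
The *CLC* window held 1 match to AGATAA, from 206 to 201 bases before the start, and 2 matches to GAGGAA. The *PRG3* window held 1 match to TTNNGNAA, from 45 to 38 bases before the start, and the *RNASE2* window held 1 from 145 to 138. *RNASE3* held the same 8 letters as *RNASE2*, and their windows were 97.0% identical over 199 aligned bases. Of 35116 RefSeq promoters cut to the same length, 9.17% held AGATAA, 33.2% TTNNGNAA and 23.6% GAGGAA. A match of these letters is a description of the window and not evidence of binding.

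Of 8 azurophil granule genes, 7 had a level in the eosinophil granule cells between those of the azurophil granule and the other cells, with *ELANE* near the lower end. *BPI*, a bactericidal protein, was above both, with 56.0 CPM against 32.96 and 0.457. *MPO*, myeloperoxidase, had 2360 CPM against 8036 in the azurophil granule cells and 269 in the other cells. *PRTN3*, proteinase 3, had 3526 CPM against 8871 and 51.3, and *AZU1*, azurocidin, had 319 CPM against 842 and 11.5. The azurophil granule cells were chosen by the sum of *ELANE*, *PRTN3* and *AZU1*, which fixes part of these differences. *ELANE*, neutrophil elastase, was all but absent: 5 UMIs in 103 cells, or 2.28 CPM (0.739 to 5.31), against 166 CPM. It was at most 1 UMI in any eosinophil granule cell, and 98 of them had none. *MS4A3*, a membrane protein of granulocyte precursors, had 304 CPM against 348, a difference of less than 2-fold.

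Through *PRTN3* and *AZU1*, 72 of the 103 cells (69.9%) would also have met the azurophil rule. The remaining 31 had 538 CPM of *MPO*, 207 of *PRTN3* and no UMI of *ELANE*, with 2618 CPM of *EPX* and 9257 of *CLC*. Those 72 cells had 3141, 4947 and 3.25 CPM of *MPO*, *PRTN3* and *ELANE*, 3050 of *EPX* and 4202 of *CLC*. *EPX* differed by less than 2-fold between the 2 parts, but the rule set at least 10 UMIs of it in both, which partly fixes this likeness. *CLC*, not used in the rule, was higher where azurophil transcripts were fewer. Scrublet called 1 of the 103 cells a doublet, from the 72. That such droplets held 2 cells of the same hashtag was not tested otherwise.

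Transcription factor genes differed in either direction from those of the azurophil granule cells. *GATA1*, a factor of the erythroid, mast cell and eosinophil lineages, had 103 CPM (90.0 to 117) against 11.01 in the azurophil granule cells, 69.5 in the other cells and 162 in the HDC/CPA3 cells. *GATA2* had 238 CPM against 40.3, 130 and 414. *CEBPE*, the C/EBP factor of late granulocyte maturation, had 350 CPM against 89.3, 4.64 and 7.31, above all 3 groups. It was 420 CPM in the 72 cells that also met the azurophil rule and 188 in the remaining 31. *CEBPA*, which drives early neutrophil and monocyte commitment, had 18.2 CPM against 109 in the azurophil granule cells, and *IRF8*, a monocyte factor, had 1.82 against 32.8. *SPI1* (PU.1) was within 2-fold of every group at 291 CPM.

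By hashtag, *GATA1* was 97.1, 117, 86.3 and 22.2 CPM in hashtags 0252 to 0255, and *CEBPE* was 345, 344, 414 and 266 CPM. Azurophil granule cells of the same hashtags had between 6.004 and 16.8 CPM of *GATA1* and between 72.9 and 104 CPM of *CEBPE*. The pooled values of the groups did not overlap for either gene, and the share of all genes for which this holds was not counted. Hashtag 0255 rests on 2 cells and on 1 UMI of *GATA1*, with an interval of 0.561 to 123 CPM that spans the azurophil values. Single cells overlapped for both genes. In the eosinophil granule cells, 23 of 103 had no UMI of *GATA1* and 20 none of *CEBPE*. In the azurophil granule cells, 100 of 833 had a UMI of *GATA1* and 412 a UMI of *CEBPE*. Both genes were detected in the same cell in 64 of 103 eosinophil granule cells (62.1%), against 7.56% of the azurophil granule, 6.09% of the HDC/CPA3 and 1.80% of the other cells. At 5000 UMIs per cell these shares were 22.3% (14.7 to 31.6%), 1.69% (7 cells left out), 1.75% (1 left out) and 0.275% (61 left out). Whether *GATA1* and *CEBPE* occur together more often than their separate shares give was not tested.

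Of 23 transcription factor genes in the list, 21 reached 10 CPM in the eosinophil or azurophil granule cells. Here and below, a gene of at least 10 CPM in 1 of the groups is counted as higher or lower if the ratio of CPM + 5 was at least 2-fold in that direction. Among all 8299 genes at that level, 132 were higher (1.59%) and 245 lower (2.95%) in the eosinophil granule cells, with a median log2 ratio of -0.03. In the list 5 were higher (*GATA1*, *GATA2*, *CEBPE*, *IKZF2* and *LMO4*), 4 were lower (*CEBPA*, *ID2*, *IRF8* and *HLX*) and the median log2 ratio was -0.23. With a pseudocount of 20 CPM the 5 were higher and 2 lower (*CEBPA* and *IRF8*). *IKZF2*, an Ikaros family factor, had 104 CPM against 19.8, and *LMO4*, a LIM domain cofactor, had 699 against 158. *RUNX1*, *MYB*, *GFI1*, *CEBPB*, *CEBPD* and *XBP1* were within 2-fold.

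**Figure D3:**
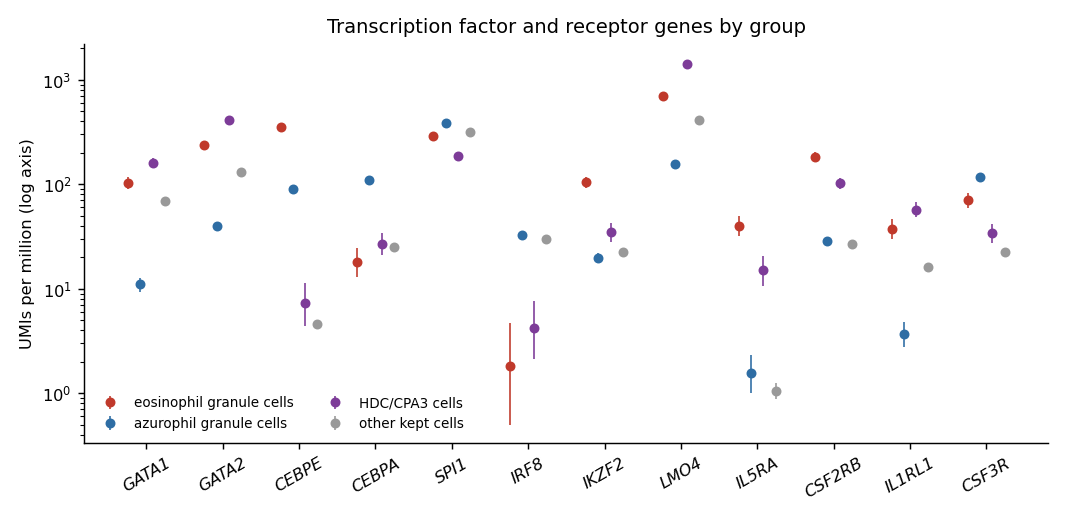
CPM (y axis, log) of 8 transcription factor and 4 receptor genes in the eosinophil granule, azurophil granule, HDC/CPA3 and other cells, with exact Poisson 95% intervals. *GATA1* and *GATA2* in the eosinophil granule cells (103 and 238) lie between the azurophil granule and HDC/CPA3 cells, *CEBPE* lies above all groups at 350, and *IL5RA* at 40.1 stands above 1.57 in the azurophil granule cells.

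Receptor genes of the lineage were detected at low levels. *IL5RA*, the alpha chain that gives IL-5 binding, had 88 UMIs in 49 of the 103 cells, at most 4 in a cell, or 40.1 CPM (32.1 to 49.4), against 1.57 in the azurophil granule cells, 1.06 in the other cells and 15.01 in the HDC/CPA3 cells. By hashtag it was 32.4, 47.3, 47.5 and 22.2 CPM, against 0.751 to 2.10 CPM in the azurophil granule cells. The value of hashtag 0255 is 1 UMI in 2 cells, with an interval of 0.561 to 123 CPM that reaches the azurophil values. The 103 cells held 36.1% of all *IL5RA* UMIs of the kept cells. *CSF2RB* had 183 CPM against 28.4, 26.8 and 102, whereas the other alpha chains, *CSF2RA* (15.03 against 15.8 in the azurophil granule cells) and *IL3RA* (11.4 against 14.02), were within 2-fold.

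Among 26 receptor genes measured, 17 reached 10 CPM in the comparison with the azurophil granule cells, and 8 were higher, 2 lower and 7 within 2-fold. Over all genes in that comparison, 1.59% were higher and 2.95% lower. Of the 8, 5 were under 10 CPM in the azurophil granule cells and so were counted only for their level in the eosinophil granule cells. With a pseudocount of 20 CPM in place of 5, 3 of the 17 were higher (*IL5RA*, *CSF2RB* and *IL1RL1*) and none lower. Besides *IL5RA* and *CSF2RB* the 8 genes were *IL1RL1* (the IL-33 receptor, 37.4 against 3.67 CPM), *HRH4* (histamine receptor H4, 14.6 against 1.97), *PTGDR2* (the prostaglandin D2 receptor, 10.5 against 0.983), *P2RY14* (10.02 against 0.590), *SIGLEC10* (41.4 against 14.9) and *FCGR2A* (74.7 against 28.6). *CCR1* and *TGFBR2* were the 2 lower genes. Against the HDC/CPA3 cells 4 of 14 receptor genes were higher (*IL5RA*, *HRH4*, *FCGR2A* and *ITGA4*) and none lower, where 2.99% of all genes were higher and 3.45% lower, and with a pseudocount of 20 CPM *FCGR2A* was the 1 higher gene. *IL1RL1* (57.3 CPM), *PTGDR2* (13.5), *SIGLEC10* (51.6) and *P2RY14* (7.70) were within 2-fold there. The log2 ratio of *HRH4* to the azurophil granule cells was 1.49. It came to 0.65 with a pseudocount of 20 CPM and to 0.67 when the 72 cells that met both rules were left out. Against the HDC/CPA3 cells it was 1.97 and came to 0.79 with that pseudocount. The log2 ratio of *FCGR2A* to the azurophil granule cells was 1.24. It came to 0.63 without the 72 cells and to 0.66 at 20 UMIs of *EPX* and of *PRG2*. Markers of mature eosinophils were at or near 0: *CCR3*, the eotaxin receptor, had no UMI in 103 cells (an upper limit of 2.91% of cells with a UMI), *SIGLEC8* had 8 UMIs (3.64 CPM, against 0.262 in the azurophil granule and 1.28 in the other cells) and *EMR1* had 5 (2.28 CPM, against 0.066 and 0.104).

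Genes of lipid mediators and cytokines were mostly within 2-fold of the azurophil granule cells. Of 18 genes, 7 reached 10 CPM and 1 of them was higher, where 1.59% of all genes were higher and 2.95% lower. This was *ALOX15*, the 15-lipoxygenase known from eosinophils, with 18.2 CPM in 15.5% of cells against 1.05 CPM. It was under 10 CPM in the azurophil granule cells and so was counted only for its level in the eosinophil granule cells. With a pseudocount of 20 CPM its log2 ratio of 1.94 came to 0.86. *ALOX5* had 36.0 CPM against 22.7, *ALOX5AP* 37.8 against 20.4, *LTC4S* 20.5 against 14.6 and *PTGS1* 40.1 against 18.5. No UMI of *IL5*, *IL13*, *AREG*, *TNF*, *PTGS2* or *RNASE1* was seen, and *IL4* had 2.

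Secretory pathway genes, which fold and export granule proteins, were at the level of the azurophil granule cells and above that of the other cells. None of 20 genes at 10 CPM differed by 2-fold from the azurophil granule cells (median log2 ratio -0.03). Among all genes 1.59% were higher and 2.95% lower, also with a median of -0.03, so the count sets this list no further apart than most genes. Against the other cells 11 of 20 were higher and none lower, with a median of 1.05. Over all 8405 genes, 290 were higher (3.45%) and 423 lower (5.03%), with a median of 0.03. With a pseudocount of 20 CPM 8 of the 20 were higher, with a median of 0.92. Without the 72 cells that met both rules, *HSPA5*, *PDIA6*, *CANX*, *SEC11C*, *SDF2L1* and *CRELD2* were under 2-fold. Their log2 ratios then lay between 0.44 (*CRELD2*) and 0.87 (*SEC11C*). *CALR*, the chaperone calreticulin, had 2880 CPM against 2583 in the azurophil granule and 622 in the other cells, and *HSP90B1* had 1269 against 1523 and 436. In the 72 cells that met both rules *CALR* was 3338 CPM and *HSP90B1* 1432, and in the remaining 31 cells they were 1810 and 887. *SRGN*, the core protein of the granule proteoglycan, had 2472 CPM against 2015 and 164.

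Heme and oxidase genes differed in single members. For each list in this paragraph, the share over all genes was 1.59% higher and 2.95% lower than in the azurophil granule cells. *ALAS1*, which starts heme synthesis for peroxidases, had 220 CPM against 99.1 in the azurophil granule and 37.95 in the other cells, and the other 7 heme genes were within 2-fold of both. Its log2 ratio of 1.11 to the azurophil granule cells came to 0.67 when the 72 cells that met both rules were left out and to 0.90 at a mitochondrial limit of 10%. Of 6 NADPH oxidase genes, *NCF4* was higher than in the azurophil granule cells (273 against 115 CPM) and *CYBB*, the catalytic subunit, was lower (9.11 against 73.5). The log2 ratio of *NCF4* was 1.21 and came to 0.80 at a mitochondrial limit of 10%. Of 25 granule and lysosome genes, *CD63*, a granule membrane tetraspanin (1091 against 479), and *CST7*, the protease inhibitor cystatin F (275 against 86.4), were higher, and *CTSG*, *GRN*, *LYST* and *CST3* were lower. The log2 ratio of *CST7* was 1.61 and came to 0.18 without the 72 cells that met both rules. That of *GRN* was -1.07 and came to -0.68 without hashtag 0252 and to -0.80 with a pseudocount of 20 CPM.

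Across all genes, the highest ratios to the azurophil granule cells were those of *CLC*, *PRG3*, *EPX* and *PRG2*, followed by *KCNH2*, *HDC*, *FAM83A*, *AKAP12*, *IL5RA*, *GATA1*, *C1orf186* and *CSF2RB*. *KCNH2*, a potassium channel gene, was detected in all 103 cells, with a median of 13 UMIs and 635 CPM (603 to 670) against 49.4, 46.1 and 153 CPM in the azurophil granule, other and HDC/CPA3 cells. By hashtag it was 637, 590, 872 and 310 CPM. *HDC*, which makes histamine, had 128 CPM against 11.5. Its level was 63.1 CPM in the 72 cells that also met the azurophil rule and 281 in the remaining 31. In the 14 cells that met the HDC/CPA3 rule it was 414. The lowest ratios belonged to *ELANE*, *LYZ*, *S100A8*, *MNDA*, *DEFA3*, *MS4A6A*, *CHI3L1*, *S100A9*, *HP*, *ASGR2*, *CSF1R* and *IL1RN*, genes of neutrophils and monocytes. Lysozyme (*LYZ*) had 55.1 CPM against 1090, *S100A9* had 107 against 1161, and *MNDA* had 1 UMI in all 103 cells against 79.1 CPM.

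Of the 132 genes higher than in the azurophil granule cells, 123 had the same direction within each of the 3 hashtags with at least 10 eosinophil granule cells, and so did 242 of the 245 lower genes. The genes were called on the pooled counts of these same hashtags, which largely fixes this agreement. It is not replication, and the share over all genes was not counted. When the 72 cells that met both rules were left out, 211 genes were higher and 399 lower.

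In the comparison with the other cells, the highest ratios were those of *PRG3*, *EPX*, *CLC*, *PRTN3*, *PRG2*, *CST7*, *CEBPE*, *AZU1*, *SRGN*, *SERPINB10*, *KCNH2* and *FAM46A*. The lowest were globin genes (*HBG2*, *HBG1*, *HBZ*, *HBD*), HLA class II genes (*HLA-DRA*, *HLA-DPA1*, *HLA-DRB1*), *SPP1*, *IFI16*, *AMICA1*, *PKIB* and *ACY3*. *MPO* was higher than in the other cells with a log2 ratio of 3.11, which came to 0.99 when the 72 cells were left out. In the 31 cells that remained, *PRTN3* was 207 CPM and *AZU1* 86.6, against 51.3 and 11.5 in the other cells.

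Against the HDC/CPA3 cells, 249 of 8327 genes were higher (2.99%) and 287 lower (3.45%). Of the granule protein genes not used in the selection, *PRG3* (2806 against 95.1 CPM), *CLC* (5717 against 1167), *RNASE2* and *RNASE3* were higher, along with *CEBPE*, *CST7*, *PRTN3* and *MPO*. *HDC* (128 against 475 CPM) and *CPA3*, mast cell carboxypeptidase (37.4 against 122), were lower, but these genes chose the HDC/CPA3 cells, and without the 72 cells that met both rules their log2 ratios came from -1.85 to -0.75 and from -1.58 to -0.68. *HPGDS*, the prostaglandin D synthase of mast cells, had 2.28 against 45.4 CPM. The HDC/CPA3 cells had 742 CPM of mast and basophil markers, against 225 in the eosinophil granule cells. *TPSAB1*, *HPGD*, *GCSAML* and *CD200R1* were higher in them as well, with log2 ratios of -1.76, -1.79, -1.05 and -1.79. With a pseudocount of 20 CPM these came to -0.74, -0.99, -0.70 and -0.73, all under 2-fold. At 5 UMIs of *EPX* and of *PRG2*, *HPGD* was -0.17 and *CD200R1* -0.50, and without the 72 cells *GCSAML* was -0.18. The HDC/CPA3 cells also had 6564 CPM of erythroid markers and 2.69 CPM of *MS4A2*, so they are called by their rule.

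A group of 34 genes, or 0.6% of the 5667 with at least 20 CPM in the eosinophil granule cells, was at least 2-fold above each of the 3 comparison groups; this criterion was chosen after the values were seen. It was led by *PRG3*, *EPX*, *PRG2*, *AVP*, *CLC*, *KCNH2* and *CEBPE*. *AVP*, a peptide hormone gene also found in blood progenitors, had 168 CPM against 26.9, 20.03 and 28.9 and was present in 83.5% of cells. *SLC43A3*, *GPX3*, *DACH1*, *ENTPD1*, *CORO2A*, *IKZF2*, *FAM46A*, *LPCAT2*, *IL5RA*, *FCGR2A* and *ALAS1* were among the rest. Without the 72 cells that met both rules, the log2 ratios of *FCGR2A* to the azurophil granule, other and HDC/CPA3 cells were 0.63, 0.56 and 0.97. At 20 UMIs of *EPX* and of *PRG2* they were 0.66, 0.75 and 0.99. The log2 ratio of *IL5RA* to the HDC/CPA3 cells, 1.17, was under 1 in 5 other settings, with values from 0.47 (at most 10% mitochondrial UMIs) to 0.91 (at least 20 UMIs of *EPX* and of *PRG2*), and was 0.83 without hashtag 0254.

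Markers of other cell types gave the following levels. Mast and basophil markers summed to 225 CPM in the eosinophil granule cells (10 of 12 listed genes measured, most of it *HDC*), against 36.1 in the azurophil granule and 124 in the other cells, and *CMA1* and *ENPP3* were at 0. The sum was 199, 240, 272 and 222 CPM in hashtags 0252 to 0255, and 14 of the 103 cells met the HDC/CPA3 rule. In cells with at most 10% of mitochondrial UMIs (19 of the 103), the *HDC* and *CPA3* ratios to the other cells changed from log2 values of 1.13 and 1.62 to -0.06 and -0.88. Late neutrophil markers summed to 134 CPM against 1564, of which *S100A9* was 107, and 6 of 12 (*S100A12*, *LCN2*, *LTF*, *MMP8*, *OLFM4* and *FCGR3B*) were at 0.

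Macrophage markers summed to 52.8 CPM, with *CD163* and *FOLR2* at 0 of 12 genes, and were led by *CD68* at 24.1 CPM. Erythroid markers summed to 51.5 CPM against 1111 in the other cells, with *AHSP* at 0, and HLA class II genes to 96.6 against 1170. No cell met the limit of 10 C1Q UMIs, and 1 cell had at least 20 hemoglobin UMIs. Progenitor markers summed to 319 CPM, mostly *AVP*, while *CD34* had 41.9 CPM against 128 in the other cells.

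Genes of the cell cycle were expressed in the eosinophil granule cells. None of 20 DNA synthesis genes and none of 20 mitosis genes differed by 2-fold in any of the 3 comparisons, in which between 1.59% and 5.03% of all genes did so in 1 direction, so the counts set these lists no further apart than most genes. The lists had median log2 ratios of 0.05 and 0.15 to the azurophil granule cells and 0.24 and 0.30 to the other cells, where the median of all genes was 0.03. *TOP2A* had 418 CPM and *TYMS* 290 CPM. No phase was assigned to single cells.

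Within the 103 cells, pooled levels of several other genes differed with *CLC*. The 3 ranges used here (no UMI, 1 to 99 UMIs and 100 or more) were chosen after the values were seen, and held 23, 34 and 46 cells with median depths of 24269, 19114 and 20758 UMIs. *MPO* was 5049, 2471 and 841 CPM across these ranges, and *PRTN3* was 6672, 3690 and 1725. *PRG3* ran the other way, with 1441, 1892 and 4137 CPM, and *IL5RA* was 14.8, 27.6 and 61.8. *EPX* changed less, with 2186, 2991 and 3270 CPM, but the rule bounds *EPX* from below in every cell, which partly fixes this. *CEBPE*, not used in the rule, also changed less, with 480, 388 and 256 CPM. Pooled, the cells without *CLC* thus held more of *MPO* and *PRTN3* and less of *PRG3* and *IL5RA* than cells with much *CLC*.

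Over the 103 cells, the Spearman correlation of CPM with *CLC* was -0.60 for *MPO*, -0.52 for *CALR*, -0.42 for *PRTN3* and -0.41 for *AZU1*. It was 0.60 for *TMSB4X* (thymosin beta 4), 0.54 for *CD63*, 0.47 for *PRG3*, 0.44 for *ALOX5AP* and 0.38 for *IL5RA*. These are descriptions over cells of 1 library that share each cell's total as the denominator, and genes beyond those of the lists were singled out after their values were seen. In the 46 cells of hashtag 0252 the value for *MPO* was -0.65, in the 43 cells of 0253 it was -0.45, and for *TMSB4X* the values were 0.62 and 0.49. *MKI67*, a marker of cycling cells, had a correlation of 0.09.

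**Figure D4:**
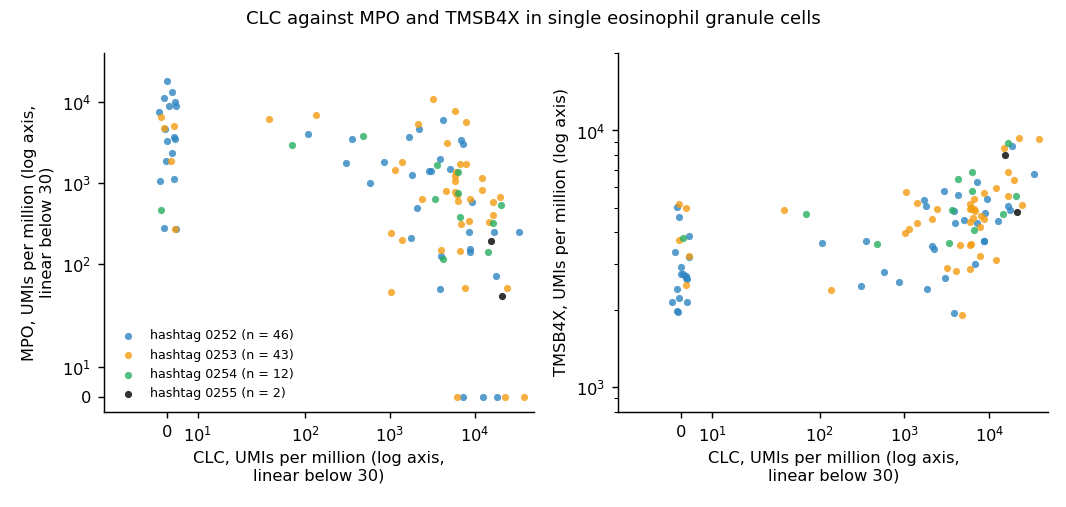
Each of the 103 eosinophil granule cells by its *CLC* level (x axes, CPM, log and linear below 30) and its level of *MPO* (left, same kind of axis) or *TMSB4X* (right, log), colored by hashtag, with cells at 0 spread slightly along the x axis. Pooled levels were 5049 (*MPO*) and 3110 CPM (*TMSB4X*) in cells without *CLC* and 841 and 5239 in cells with 100 or more *CLC* UMIs, and single cells overlap, with *MPO* from 268 to 18215 CPM in the former and from 0 to 6012 in the latter.

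Divided instead into 3 parts by the sum of *EPX* and *PRG2* CPM, the lowest 35, middle 34 and highest 34 cells had 936, 2339 and 6382 CPM of *EPX*, which the division fixes. *PRG3* was 1005, 2655 and 5485 CPM and *RNASE2* was 249, 277 and 817 in the same parts. *MPO* was 2643, 2420 and 1897, and *PRTN3* was 3906, 2993 and 3657. Median depth was 23292, 22176 and 16392 UMIs, lowest in the cells with the highest levels.

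The eosinophil granule cells also resembled each other in the rest of their genes. Among the 15 nearest neighbors of each cell in 40 principal components of variable genes, without *EPX* and *PRG2*, 58.2% were eosinophil granule cells, which make up 1.36% of kept cells. A further 25.4% were azurophil granule cells (11.03% of kept cells) and 4.34% were HDC/CPA3 cells (1.52%). Without all 6 granule protein genes the first share was 54.6%, and 54.9% without the 8 azurophil marker genes as well. In the 23 cells without *CLC*, 52.2% of neighbors were azurophil granule cells and 37.1% were eosinophil granule cells, against 11.6% and 68.4% in the 46 cells with 100 or more *CLC* UMIs, but *CLC* was itself among the genes that placed these cells. Without the 6 granule protein genes the shares were 47.8% and 44.9% in the cells without *CLC*, against 14.9% and 59.1%. The neighbors are a description of 1 library, and the components also hold genes that vary with *EPX* and *PRG2*.

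The share of eosinophil granule cells differed between hashtags. It was 2.15% of 2136 kept cells in hashtag 0252 (1.58 to 2.86%), 2.15% of 1996 in 0253 (1.56 to 2.89%), 0.650% of 1847 in 0254 (0.336 to 1.13%) and 0.127% of 1571 in 0255 (0.0154 to 0.459%). Hashtags 0252 and 0253 were alike and lay above 0254 and 0255, beyond counting error. Azurophil granule cells were 15.9%, 16.8%, 5.14% and 4.07% of the same cells. Per 100 azurophil granule cells there were 13.6, 12.8, 12.6 and 3.12 eosinophil granule cells, so that the ratio was close in 3 hashtags and lower in 0255, on 2 cells. With 1 pool of wells per hashtag, coating, wells and labeling cannot be told apart.

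At equal shares of cells, hashtags 0252 and 0253 had unequal *CLC* levels. *CLC* was absent in 17 of 46 cells of 0252 (36.96%, 23.2 to 52.5%) and in 5 of 43 cells of 0253 (11.6%, 3.89 to 25.1%), intervals that overlap, and 13 and 25 cells had 100 or more UMIs. *MPO* was 3149, 1980, 958 and 111 CPM in the eosinophil granule cells of hashtags 0252 to 0255. *EPX* was 2838, 2887, 3323 and 3367 CPM. Its range over cells, which the rule bounds from below, was alike in 0252 (10 to 186 UMIs) and 0253 (12 to 249). The difference between these hashtags was not tested, because there is no replicate of either.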

How the data were processed

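Single-cell 3′ libraries of 1 hashtagged pool were analysed. Per the labels, Cell Ranger 6.0.1 and the hg19 build were used by the authors, whose deposited matrix holds raw UMI counts of 32738 genes in 10836 barcodes (218374103 gene UMIs), with a hashtag call for each barcode. Barcodes called Doublet or Negative were left out, and 8488 had 1 hashtag. The kept cells held 142110950 UMIs.

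UMIs were summed over the cells of a group and scaled to CPM. Log2 ratios had a pseudocount of 5 CPM, which understates the change of low genes, and genes with at least 10 CPM in 1 group were counted. Summed counts carry exact Poisson and shares exact Clopper-Pearson 95% intervals, for counting error only. Beside a share of 0 stands the share that 3 counts would make. Cells that met both rules counted as eosinophil granule cells. Thinned values used 5000 UMIs per cell with a fixed seed. Scrublet (expected rate 6%) called 99 of 8488 cells and removed none in the values reported. Neighbors were found after depth scaling, log transformation and scanpy's default choice of variable genes. The tools were scanpy 1.11.5, matplotlib 3.10.9, pandas 2.3.3, scipy 1.17.1 and numpy 2.4.6 under Python 3.11.15, and the steps were tested on simulated data.

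The cells and gene lists were chosen with earlier results of these data known. Genes named are *EPX*, *PRG2* and *CLC*, the listed granule, receptor, factor and mediator genes at 10 CPM or more, the extremes of other lists, and the 12 highest and 12 lowest ratios of each of the first 2 comparisons among genes with at least 20 CPM and 1 direction in every hashtag with 10 cells. Others were chosen after their values were seen. Gene positions come from a GENCODE annotation of GRCh37.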

Additional observations from a re-analysis of the deposited data

Results flagged for a closer look

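Barcodes outside the comparisons also met the limit of 10 UMIs of *EPX* and of *PRG2*. Among 1339 barcodes called doublets by hashtag, 23 did (1.72%, exact Clopper-Pearson interval 1.09 to 2.57%), with a median of 36925 UMIs, and 13 of them met the azurophil rule. Among 1009 barcodes without a hashtag call, 13 did (1.29%, 0.688 to 2.19%), with a median of 18038 UMIs. Their *CLC* was 10495 CPM, their *PRG3* 5437 and their *MPO* 731, against 5717, 2806 and 2360 in the kept cells. Among 938 barcodes with 1 hashtag but outside the limits on UMIs, genes or mitochondrial share, 10 did (1.07%, 0.512 to 1.95%). In each class a count of 0 would have allowed at most 0.320% of barcodes.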

How the results depend on the processing

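The share of eosinophil granule cells was 1.36% at 10 UMIs, 2.37% at 5 and 0.397% at 20 UMIs of both genes, and 2.58% (19 of 736 cells) at a mitochondrial limit of 10%. Leaving out 1 hashtag at a time gave 1.05 to 1.69%, the former without 0252 and the latter without 0255. The counts of genes past 2-fold, higher and lower, were 132 and 245 against azurophil granule, 290 and 423 against other and 249 and 287 against HDC/CPA3 cells. At the 10% mitochondrial limit they were 311 and 504, 763 and 948, and 2642 and 1919, from few cells. With a pseudocount of 20 CPM they were 51 and 74, 121 and 154, and 92 and 102, and at 50 CPM in place of 10 CPM they were 61 and 76, 151 and 122, and 119 and 112. A pseudocount of 1 CPM gave 410 higher than in HDC/CPA3 cells, and the mean over the 4 hashtags gave 201 higher than in azurophil granule cells. Thinning gave 416 lower than in azurophil granule cells, and 594 and 584 against HDC/CPA3 cells. Without the cells meeting both rules, 211 and 399 differed from azurophil granule cells. Without 1 hashtag the ranges were 128 to 145 and 243 to 286, 287 to 343 and 416 to 453, and 249 to 335 and 274 to 346. The share of like neighbors was 54.6% and 54.9% in place of 58.2% with genes left out.

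At the 10% limit the log2 ratios to the other cells turned to -0.062 (*HDC*), -0.88 (*CPA3*) and -0.18 (median of the mast and basophil markers), and those to HDC/CPA3 cells to -0.80 (*CEBPD*), -0.31 (*IKZF1*), -1.27 (*MS4A3*), 0 (*KLF1*) and 1.70 (erythroid median). Against other cells *HPGD* turned to 0.024 at 5 UMIs of both genes and *LYST* to -0.13 without the cells meeting both rules. Without a limit on level the mast and basophil median against other cells was -0.018. The causes were not tested. For the leading and named genes and those past 2-fold in the lists, 174 log2 ratios gave 3132 values under the alternatives, of which 2918 stayed past 2-fold in their direction. No paired analysis was possible because all cells came from 1 library without replicate numbers. Genes under about 10 CPM rest on few UMIs in 103 cells, and hashtag 0255 holds 2 of these cells.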

Other observations

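A like criterion for lower genes was also chosen after the values were seen. It set the limit of 20 CPM in each comparison group, not in the eosinophil granule cells as for the 34 higher genes, so the counts cannot be compared. By it, 20 genes were at least 2-fold lower in the eosinophil granule cells than in all 3 comparison groups. Beside the globins *HBZ*, *HBG1* and *HBG2* these included *APOE*, an apolipoprotein (8.65 CPM against 55.05 in the azurophil granule, 74.9 in the other and 98.5 in the HDC/CPA3 cells). *CST3*, the protease inhibitor cystatin C, had 81.1 CPM against 284, 531 and 276, the opposite direction to its relative *CST7*. *CD74*, the invariant chain of HLA class II, was also among them, with 66.0 CPM against 154, 527 and 146.

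The remaining marker lists were low. Megakaryocyte markers summed to 143 CPM against 441 in the other cells, with *PF4* and *GP1BB* at 0 and *PLEK*, which other blood cells also express, at 90.6. Endothelial markers summed to 130 CPM, of which *EGFL7* was 126, and *CDH5*, *CLDN5*, *KDR* and *SOX17* were at 0. Stromal markers summed to 49.6 CPM against 356, led by *TPM2*, with *DCN* at 0.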
